A study of Mus musculus with 4 samples.

Results

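MACS2 peaks that lay off chromosomes 1 to 19, X and Y of the mouse genome were taken from 4 deposited lists, by the sequence name each peak carries. They numbered 892 of the 120823 peaks of the 4 lists. The lists came from 1 WT liver and 1 Uhrf1hepKO liver of male C57Bl/6 mice of 8 to 12 weeks on a normal diet, each profiled by ATACseq and by ChIPseq for H2A.Z. The WT liver is described as Uhrf1-fl/fl without Cre, and the Uhrf1hepKO liver as Uhrf1-fl/fl;Alb:Cre, in which Cre is driven by the albumin promoter, so that both carry the floxed allele and the deletion is aimed at hepatocytes while the other liver cells keep the gene. The same livers went into both assays. ATACseq cuts accessible DNA with the Tn5 transposase, and the ChIPseq libraries hold DNA released by micrococcal nuclease and bound to the histone variant H2A.Z. With 1 library per liver and assay there is no replicate, so no test between livers was possible and no p-value was computed. Shares have Wilson 95% intervals, which take in counting error alone.

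The sequences fall into 4 kinds. Unlocalised scaffolds are assembled pieces assigned to a chromosome but to no place on it, and unplaced scaffolds are assigned to no chromosome. Fix patches are corrected versions of a stretch of a chromosome, so most of their sequence is also present elsewhere in the genome the reads were aligned to. Mitochondrial DNA is a small circle present in many copies per cell, free of nucleosomes, and copied in fragments into the nuclear chromosomes over evolutionary time. Many scaffolds stay unplaced because they hold tandem repeats of pericentromeric heterochromatin, which cannot be assembled across. In the mouse that heterochromatin is built of the major satellite, an A- and T-rich repeat with a unit of 234 bp that is densely methylated in normal tissue, and UHRF1 is the factor that directs maintenance DNA methylation after replication. H2A.Z marks the nucleosomes beside active gene starts and is also known from pericentromeric chromatin.

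Peaks of the 4 lists lay on 46 such sequences, of which 9 were unlocalised, 16 unplaced, 20 fix patches and 1 mitochondrial DNA. Of the 46, 21 held a peak in all 4 lists, 6 held ATACseq but no H2A.Z peaks and 13 held H2A.Z but no ATACseq peaks. The sequences under 9 peaks are shown first, because the repeats in them recur in the results. All are on the + strand of GRCm38, as read from the RefSeq FASTA, and each stretch lies inside the peak with the highest fold enrichment of its assay on that scaffold, except the second one, which is the highest H2A.Z peak of the satellite part of JH584304.1. Scaffolds, the satellite part among them, were picked for showing after their values were seen. In the first group, a capital marks a base that is equal to the base 1 repeat unit further on, with a unit of 234 bp for JH584304.1, 117 bp for GL456390.1, 21 bp for GL456393.1 and 31 bp for GL456370.1.
JH584304.1:70566-70799, WT ATACseq: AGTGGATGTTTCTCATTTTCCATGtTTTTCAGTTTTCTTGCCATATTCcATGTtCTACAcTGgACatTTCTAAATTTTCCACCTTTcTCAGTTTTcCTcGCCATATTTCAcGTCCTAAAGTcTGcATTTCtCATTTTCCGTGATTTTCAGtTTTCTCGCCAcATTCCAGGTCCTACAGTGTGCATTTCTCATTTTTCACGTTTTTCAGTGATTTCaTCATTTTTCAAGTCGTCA
JH584304.1:68983-69216, Uhrf1hepKO H2A.Z: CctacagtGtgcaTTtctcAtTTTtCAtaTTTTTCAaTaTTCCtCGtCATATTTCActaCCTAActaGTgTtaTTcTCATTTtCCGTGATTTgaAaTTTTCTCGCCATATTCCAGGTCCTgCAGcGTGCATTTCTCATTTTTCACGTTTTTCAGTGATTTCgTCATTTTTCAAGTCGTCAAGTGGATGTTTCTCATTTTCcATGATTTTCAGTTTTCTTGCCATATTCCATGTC
GL456390.1:19096-19329, WT ATACseq: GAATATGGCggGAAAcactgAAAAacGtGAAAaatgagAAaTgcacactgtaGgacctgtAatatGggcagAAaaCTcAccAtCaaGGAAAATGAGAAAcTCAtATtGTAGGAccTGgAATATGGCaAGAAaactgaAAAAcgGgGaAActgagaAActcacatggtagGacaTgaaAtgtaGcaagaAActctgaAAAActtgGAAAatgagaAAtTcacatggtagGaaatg
GL456390.1:15352-15523, Uhrf1hepKO H2A.Z: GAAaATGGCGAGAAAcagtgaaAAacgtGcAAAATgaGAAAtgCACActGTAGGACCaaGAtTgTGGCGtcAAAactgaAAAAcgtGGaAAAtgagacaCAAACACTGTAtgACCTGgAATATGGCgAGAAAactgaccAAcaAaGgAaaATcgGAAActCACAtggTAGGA
GL456393.1:35791-35909, Uhrf1hepKO ATACseq: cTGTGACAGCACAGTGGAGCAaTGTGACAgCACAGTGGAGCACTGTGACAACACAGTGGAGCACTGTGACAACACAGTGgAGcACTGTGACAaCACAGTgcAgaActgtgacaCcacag
GL456370.1:9-162, Uhrf1hepKO ATACseq: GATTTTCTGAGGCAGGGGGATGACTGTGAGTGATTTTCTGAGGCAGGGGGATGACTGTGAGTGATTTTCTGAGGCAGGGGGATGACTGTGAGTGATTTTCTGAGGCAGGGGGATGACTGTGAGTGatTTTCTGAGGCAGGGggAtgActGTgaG

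The share of capitals was 92.7% in the first stretch and 82.5% in the second. It was 43.2% and 62.2% in the stretches of GL456390.1, 80.7% in that of GL456393.1 and 93.5% in that of GL456370.1. In the remaining stretches no repeat unit is marked. They come from the part of JH584304.1 outside the satellite, from a chromosome 1 scaffold and from the region upstream of Dhrsx on GL456216.1, and here capitals mark CpG dinucleotides.
JH584304.1:37393-37542, WT H2A.Z: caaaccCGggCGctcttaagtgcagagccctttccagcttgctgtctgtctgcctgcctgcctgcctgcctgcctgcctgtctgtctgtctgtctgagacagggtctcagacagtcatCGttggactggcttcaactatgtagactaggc
GL456211.1:147885-148006, WT ATACseq: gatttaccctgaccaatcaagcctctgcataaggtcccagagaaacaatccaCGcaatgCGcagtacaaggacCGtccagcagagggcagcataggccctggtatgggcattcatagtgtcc
GL456216.1:13642-13788, WT H2A.Z: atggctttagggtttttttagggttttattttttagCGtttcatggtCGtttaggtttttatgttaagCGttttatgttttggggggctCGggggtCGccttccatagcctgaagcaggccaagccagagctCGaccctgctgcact

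Members made up 176 of the 10758 peaks of the WT ATACseq list (1.64%, 1.41 to 1.89). They made up 208 of 10972 in the Uhrf1hepKO ATACseq list (1.90%, 1.66 to 2.17). In H2A.Z they were 252 of 51702 in WT (0.487%, 0.431 to 0.551) and 256 of 47391 in Uhrf1hepKO (0.540%, 0.478 to 0.610). By kind, in the order WT ATACseq, Uhrf1hepKO ATACseq, WT H2A.Z and Uhrf1hepKO H2A.Z, unlocalised scaffolds held 42, 56, 18 and 23 peaks, unplaced scaffolds 115, 128, 164 and 177, fix patches 16, 21, 70 and 56, and mitochondrial DNA 3, 3, 0 and 0. Unplaced scaffolds thus held the most members in every list, and a single one of them, JH584304.1, held 49, 52, 148 and 131 peaks.

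Taken over all kinds, ATACseq members were wider by median than the peaks on the chromosomes, and the members of both assays had a lower fold. H2A.Z members were narrower than the peaks on the chromosomes in WT and of nearly the same width in Uhrf1hepKO. The median width in ATACseq was 374 bp in WT and 388 bp in Uhrf1hepKO, against 232 and 207 bp for the peaks on the chromosomes. In H2A.Z it was 136 bp in WT and 165 bp in Uhrf1hepKO, against 156 and 167 bp. The ATACseq peaks of unplaced scaffolds were the wider ones, with 408 and 463 bp, besides those of mitochondrial DNA. Those of unlocalised scaffolds, with 170.5 and 197.5 bp, were narrower than on the chromosomes. Fold enrichment is the ratio of the reads at a peak to the local background, as the authors' caller gave it. Its median in ATACseq was 3.32 in WT and 3.11 in Uhrf1hepKO, against 4.31 and 4.05 on the chromosomes. In H2A.Z it was 2.18 and 2.10, against 5.12 and 5.35. The low H2A.Z fold was that of unplaced scaffolds, with 1.76 and 1.75. On unlocalised scaffolds it was 5.36 and 4.18, and on fix patches 5.23 and 5.35. These folds were read within a list only, because the lists are not scaled to each other.

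**Figure D1:**
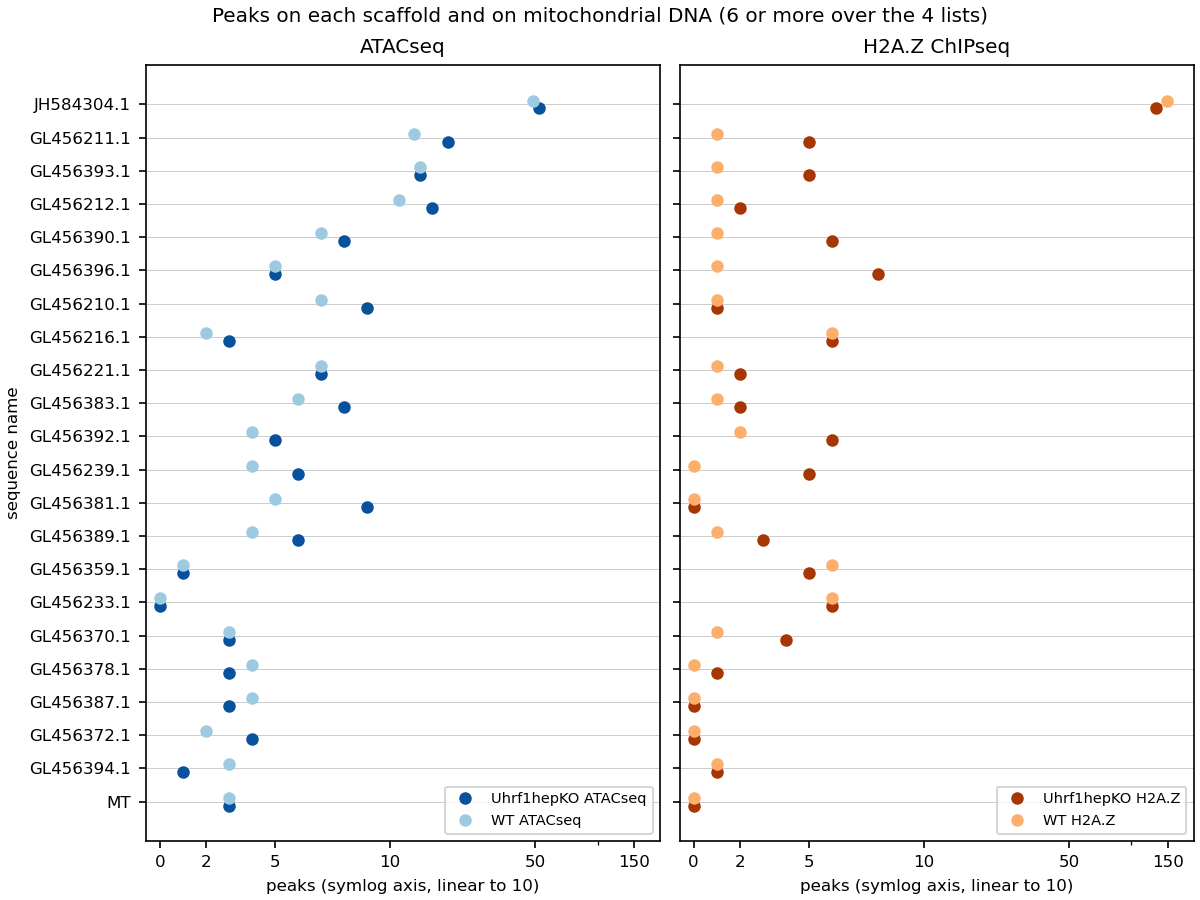
Number of peaks on each scaffold and on mitochondrial DNA with 6 or more peaks over the 4 lists, with ATACseq and H2A.Z in separate panels, sequence names on the vertical axis and the count on a symlog axis that is linear to 10; each point is 1 list (WT or Uhrf1hepKO). JH584304.1 reaches 49 and 52 ATACseq and 148 and 131 H2A.Z peaks, while mitochondrial DNA has 3 and 3 ATACseq and 0 H2A.Z peaks.

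Scaffolds were denser in ATACseq peaks than the chromosomes, and without JH584304.1 they were sparser in H2A.Z peaks. The genome build has 44 scaffolds with 5334105 bp in all, and 25 of them, with 2757069 bp, held a peak. Over the 44 scaffolds and mitochondrial DNA, peaks per Mb were 7.70 times those of the chromosomes in WT ATACseq and 8.85 times in Uhrf1hepKO ATACseq. In H2A.Z the ratio was 1.80 in WT and 2.16 in Uhrf1hepKO. Over the scaffolds other than JH584304.1, the ATACseq ratio was 5.33 and 6.40, but the H2A.Z ratio was 0.345 in WT and 0.764 in Uhrf1hepKO. The direction of the H2A.Z ratio therefore rested on 1 scaffold.

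Most members were found in both livers. A member was counted as shared with the other liver when it overlapped a peak of the same assay there by 1 bp. In WT ATACseq 79.5% of members were shared (73.0 to 84.8), with 61.6% of the whole list as background. In Uhrf1hepKO ATACseq 66.8% were shared (60.2 to 72.9), with a background of 60.5%. In WT H2A.Z 75.8% were shared (70.1 to 80.7), with a background of 70.0%. In Uhrf1hepKO H2A.Z 70.3% were shared (64.4 to 75.6), with a background of 75.6%. Only the WT ATACseq share lay above its background by clearly more than its interval, and the shares of the other 3 lists lay within 7 percentage points of theirs. Of unplaced ATACseq peaks outside JH584304.1, 89.4% were shared in WT and 77.6% in Uhrf1hepKO, whereas of unlocalised ones 47.6% and 35.7% were.

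Overlap between the assays was found mainly on unplaced scaffolds, JH584304.1 above all. An H2A.Z member overlapped an ATACseq peak of the same liver in 36.1% of cases in WT, against 8.78% of the whole list, and in 46.5% in Uhrf1hepKO, against 7.46%. An ATACseq member overlapped an H2A.Z peak in 27.8% of cases in WT, against a background of 35.2%, and in 33.7% in Uhrf1hepKO, against 27.4%. Over the members of both assays outside JH584304.1, 9.96% in WT and 22.1% in Uhrf1hepKO overlapped the other assay, against 32.7% and 40.7% with it. When an overlap of 50% of both peaks was asked for, over all members, the shares were 4.67% in WT and 6.47% in Uhrf1hepKO. By an overlap of 1 bp, 2 of 70 H2A.Z peaks on fix patches in WT and 2 of 56 in Uhrf1hepKO overlapped an ATACseq peak. On mitochondrial DNA no overlap was possible, because it held no H2A.Z peak.

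**Figure D2:**
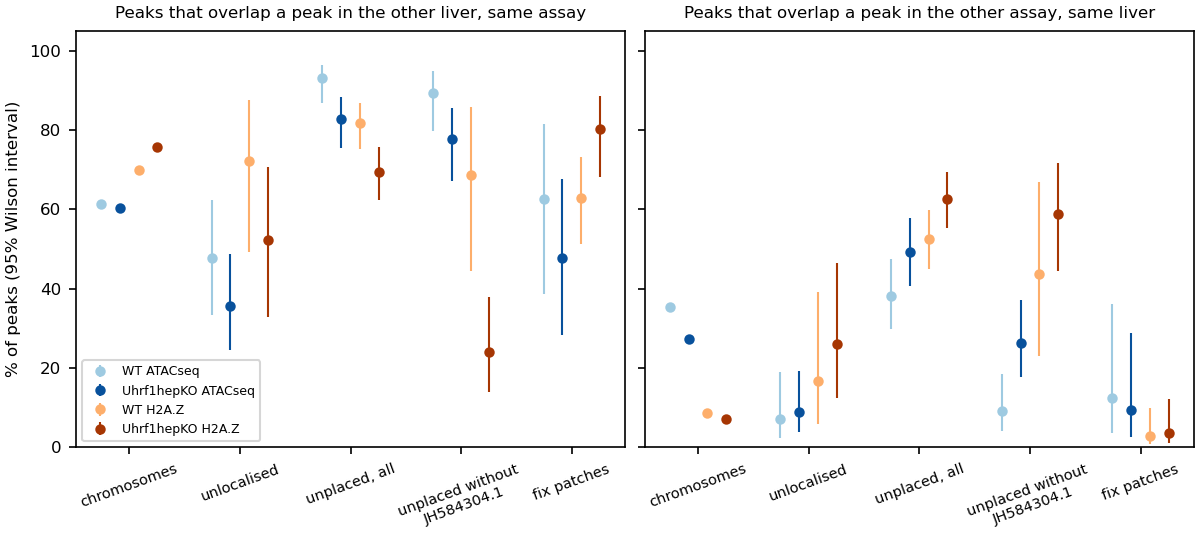
Percent of peaks that overlap a peak of the other liver (left) or of the other assay in the same liver (right), by kind of sequence on the horizontal axis, with 1 point per list and 95% Wilson bars. H2A.Z peaks of unplaced scaffolds overlap ATACseq in 52.4% in WT and 62.7% in Uhrf1hepKO, against 8.64% and 7.25% on the chromosomes. ATACseq peaks of unplaced scaffolds overlap H2A.Z in 38.3% and 49.2%, against 35.3% and 27.2% on the chromosomes. Without JH584304.1 the ATACseq shares of unplaced scaffolds are 9.09% and 26.3%, and the H2A.Z shares are 43.8% and 58.7%.

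JH584304.1 is an unplaced scaffold of 114452 bp with peaks over about as much of its length in each assay. ATACseq peaks covered 30.9% of it in WT and 36.8% in Uhrf1hepKO, against 0.114% and 0.106% of the chromosomes. H2A.Z peaks covered 29.8% in WT and 34.0% in Uhrf1hepKO, against 0.430% and 0.413%. Its sequence changes at position 68466. The first part had a GC content of 46.5%, and 0.188% of it lay in arrays of a 234-bp repeat. The second part, of 45987 bp, had a GC content of 35.7%, and 73.4% of it lay in such arrays. A base of its arrays equalled the base 234 bp further on in 87.1% of cases. Over all of the second part this share was 73.3%, against 27.4% at a shift of 200 bp and 35.7% at 300 bp. The unit length is that of the major satellite, and the second part is called the satellite part here, although the files name no repeat class.

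The satellite part was covered by peaks of both assays. It held 24 ATACseq peaks in WT and 22 in Uhrf1hepKO, and all of them overlapped a peak of the other liver. Of these, 23 of 24 and 22 of 22 overlapped an H2A.Z peak of the same liver. In turn, 57 of its 87 H2A.Z peaks in WT and 55 of 70 in Uhrf1hepKO overlapped an ATACseq peak. With this much of the part under peaks an overlap of 1 bp is frequent, and no expected value was computed. ATACseq peaks covered 43% of its length in WT and 51.0% in Uhrf1hepKO, with a median width of 476.5 and 1250 bp. H2A.Z peaks covered 28.8% in WT and 27.1% in Uhrf1hepKO, with a median width of 136 and 150.5 bp. The H2A.Z count was lower in Uhrf1hepKO, but the covered length differed by less than 2 percentage points. The median H2A.Z fold was 1.69 in WT and 1.67 in Uhrf1hepKO, well under the list medians of the chromosomes given above.

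H2A.Z summits of the satellite part were spaced near multiples of the repeat unit more often than those of the first part. The distance between neighbouring summits was within 20 bp of a multiple of 234 bp in 26 of 86 cases in WT (30.2%) and in 22 of 69 in Uhrf1hepKO (31.9%). In the first part this held for 12 of 60 (20%) and 7 of 60 (11.7%). Such distances make up 17.5% of all possible offsets. Neighbouring summits share their scaffold and repeat, so these shares are a description of each list.

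In the first part, the 5′ end of the pseudogene Pisd-ps3 held the widest H2A.Z peaks of all members in either liver. Pisd-ps3 is related to the gene for phosphatidylserine decarboxylase, which makes phosphatidylethanolamine in mitochondria. RefSeq places it at 52674 to 59689 on the minus strand. The WT H2A.Z peak ran from 58584 to 61362 (2779 bp, fold 2.63), and the Uhrf1hepKO peak from 58567 to 61366 (2800 bp, fold 3.01). ATACseq peaks covered the 5′ end at 58991 to 60082 in WT (fold 3.79) and at 58856 to 60112 in Uhrf1hepKO (fold 3.49). Downstream, neither liver had an H2A.Z peak from 46968 to 58103, a stretch of 11136 bp that begins inside the gene and runs past its 3′ end. Upstream, neither had an ATACseq peak from 60772 to 68527. The first part as a whole held 25 and 30 ATACseq and 61 and 61 H2A.Z peaks in WT and Uhrf1hepKO.

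**Figure D3:**
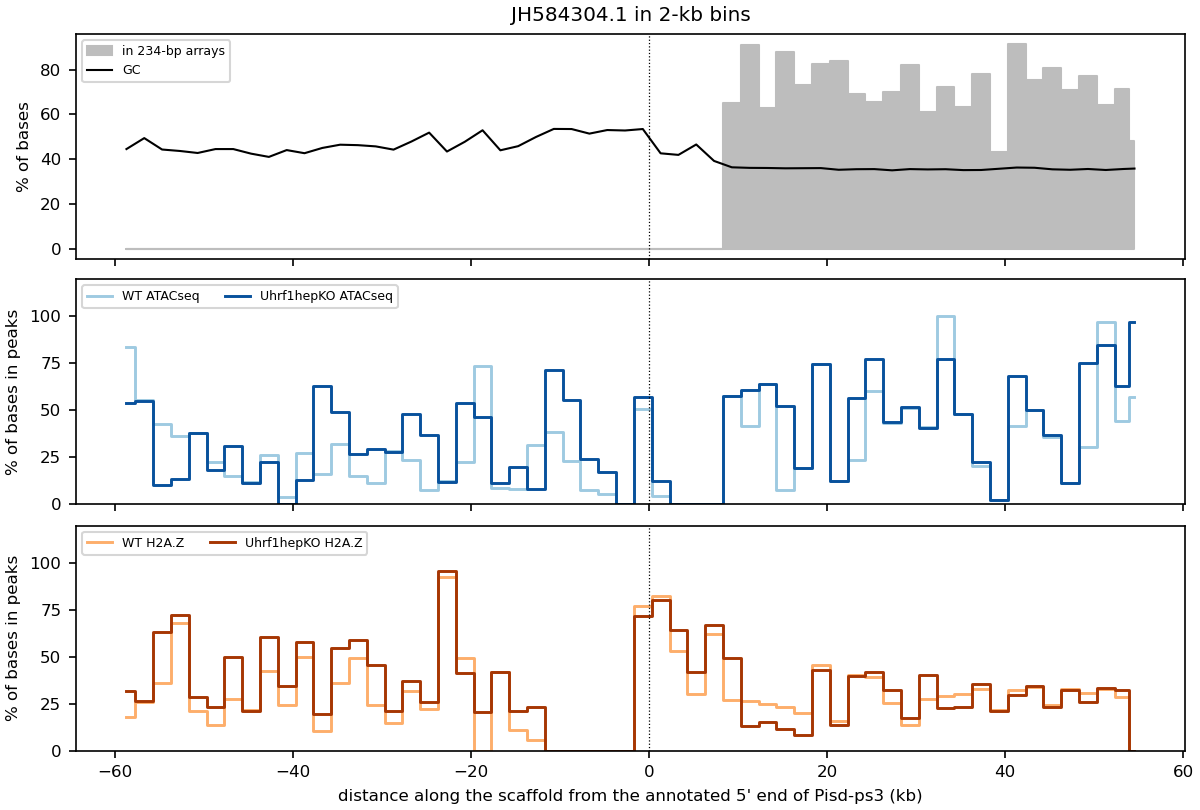
JH584304.1 in 2-kb bins by distance from the 5′ end of Pisd-ps3 in kb: GC content and percent of bases in 234-bp arrays (top), and percent of bases in ATACseq (middle) and H2A.Z (bottom) peaks for each liver as lines. Both assays cover the satellite part on the right, where ATACseq peaks take 43% of bases in WT and 51.0% in Uhrf1hepKO.

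Most H2A.Z members, chiefly those of JH584304.1, lay on high read pileups over a high local background. In MACS2 a fold is a ratio in which 1 is added to both the pileup and the background, and the p-value is that of a Poisson law with the same pair of numbers. The whole number of reads at a summit and its background could therefore be solved for at all 252 WT and all 256 Uhrf1hepKO members, with an error of at most 0.000232 in the −log10 p-value. The lowest background of the list, 3.10 reads in WT and 3.30 in Uhrf1hepKO, is the level that most peaks on the chromosomes had. The background was above it at 67.5% of members in WT and 73.8% in Uhrf1hepKO, against 6.40% and 8.58% of the peaks on the chromosomes. It was 10 times that level or more at 61.9% and 63.7% of members, against 0.321% and 0.350%. On JH584304.1 the lowest background was 34.0 reads in WT and 35.9 in Uhrf1hepKO. Of the peaks on other unplaced scaffolds, 43.8% in WT and 67.4% in Uhrf1hepKO reached 10 times the lowest level. Of those on unlocalised scaffolds 5.56% and 4.35% did, and of those on fix patches 0% in each. In the satellite part the median summit had 178 reads over a background of 104.5 in WT and 185 over 110.5 in Uhrf1hepKO. The median over the peaks on the chromosomes was 21 and 23 reads over the lowest level. A low fold at these members thus stood beside a high number of reads, and how reads with several equally good placements were treated is not given in the sources used here.

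**Figure D4:**
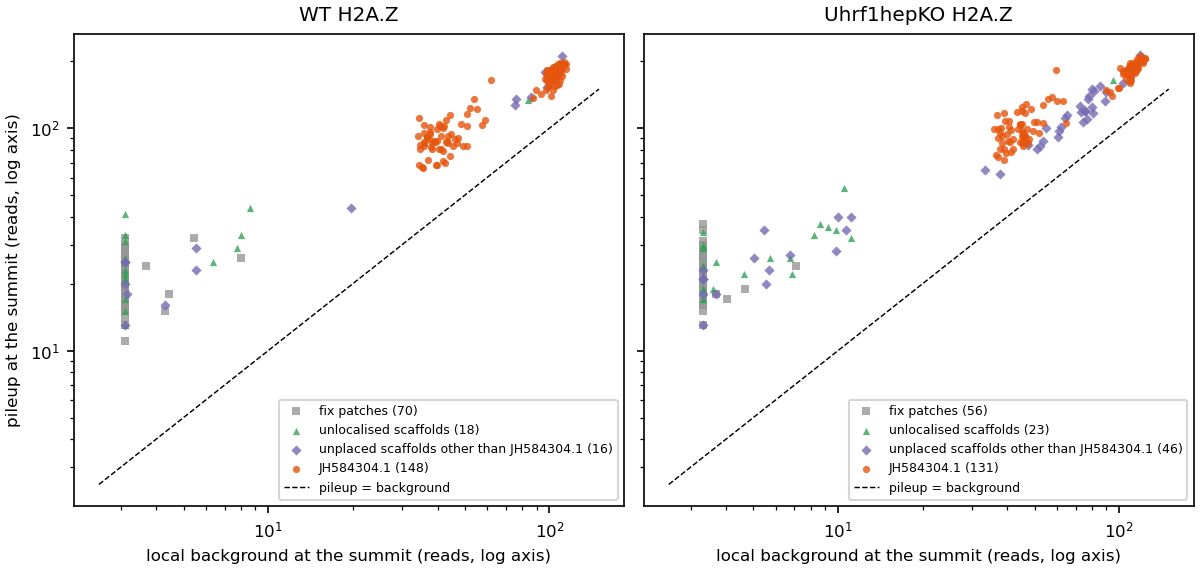
Reads at the summit (vertical, log axis) against the local background (horizontal, log axis) for the H2A.Z members of WT (left, 252) and Uhrf1hepKO (right, 256), with 1 point per peak marked by kind of sequence and a dashed line where both are equal. Most peaks on fix patches sit at the lowest background of 3.10 or 3.30 reads, and JH584304.1 sits between 34.0 and 123 reads.

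On the other unplaced scaffolds, H2A.Z peaks were more frequent in the Uhrf1hepKO list. There were 16 in WT and 46 in Uhrf1hepKO, with more in Uhrf1hepKO on 9 of the 15 scaffolds, fewer on 2 and equal numbers on 4. The ratio of Uhrf1hepKO to WT was 2.88, whereas it was 0.916 on the chromosomes (51450 and 47135 peaks), 0.885 on JH584304.1 and 0.80 on fix patches. On unlocalised scaffolds the ratio was also above 1, at 1.28 (18 and 23 peaks). Of the 46 peaks in Uhrf1hepKO, 11 overlapped a WT peak (23.9%, 13.9 to 37.9), against 75.6% of the whole list. This share is limited by the 16 WT peaks there. Of those 16, 11 overlapped a Uhrf1hepKO peak (68.8%, 44.4 to 85.8), near the 70.0% of the whole WT list. ATACseq peaks on these scaffolds numbered 66 in WT and 76 in Uhrf1hepKO. The lowest background of the H2A.Z lists was 3.10 reads in WT and 3.30 in Uhrf1hepKO. It is not a measure of depth alone, and the part of depth in the difference was not tested. The spread between livers of 1 genotype is unknown, so the difference cannot be told apart from one between individual animals or libraries.

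The additional H2A.Z peaks lay mainly on scaffolds that hold tandem repeats. Most bases under the Uhrf1hepKO peaks there lay outside the arrays as defined here. GL456383.1, GL456389.1, GL456390.1, GL456392.1 and GL456396.1 hold a repeat of 58 or 117 bp. Both lengths are fractions of the 234-bp unit of JH584304.1, rounded down. Part of the ATACseq stretch of GL456390.1 shown above is the reverse complement of part of the first JH584304.1 stretch. How far the repeats of these scaffolds are related to that unit was not tested. These scaffolds had 6 H2A.Z peaks in WT, with 1, 1, 1, 2 and 1 in this order, and 25 in Uhrf1hepKO, with 2, 3, 6, 6 and 8. All 6 WT peaks overlapped one of Uhrf1hepKO, and 20 of the 25 overlapped an ATACseq peak. The median summit had 153.5 reads over 91.3 in WT and 118 over 74.5 in Uhrf1hepKO, so the peaks seen in Uhrf1hepKO included lower ones. The arrays of the repeat held 11.8% to 49.0% of the bases under H2A.Z peaks of these scaffolds in Uhrf1hepKO. They made up 7.07% to 12.4% of the scaffolds themselves, less than their share under those peaks on each one. The scaffold shares also count unknown bases (N), which were 11520 of the 24668 bp of GL456390.1. Under the few WT H2A.Z peaks the arrays held 0% on GL456389.1, GL456392.1 and GL456396.1, 37.9% on GL456390.1 and 100% on GL456383.1. Every one of these scaffolds had an excess or the same number of ATACseq peaks in Uhrf1hepKO: 6 and 8, 4 and 6, 7 and 8, 4 and 5, and 5 and 5, which is 26 and 32 in all.

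A repeat of 21 bp marked another group, GL456239.1, GL456381.1, GL456387.1, GL456393.1 and GL456394.1. They had 2 H2A.Z peaks in WT and 11 in Uhrf1hepKO. The 11 fell on GL456239.1 (0 in WT, 5 in Uhrf1hepKO), GL456393.1 (1 and 5) and GL456394.1 (1 and 1), while GL456381.1 and GL456387.1 had none in either liver. None of the bases under these H2A.Z peaks lay in the arrays of the 21-bp repeat. ATACseq peaks were similar in number, 30 in WT and 33 in Uhrf1hepKO, and GL456393.1 alone held 14 in each liver. The array of the 21-bp repeat made up 75% of the bases under ATACseq peaks of GL456381.1 in WT and 52.0% in Uhrf1hepKO, while it made up 28% of that scaffold.

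The remaining 5 of these scaffolds, GL456359.1, GL456367.1, GL456370.1, GL456372.1 and GL456378.1, held 8 and 10 H2A.Z and 10 and 11 ATACseq peaks. GL456370.1 carried the ATACseq members with the highest fold in both livers. Its ATACseq peak at bases 11 to 163 had a fold of 32.5 in WT, rank 3 of 10758, and that at bases 9 to 162 had a fold of 33.7 in Uhrf1hepKO, rank 3 of 10972. A further one near its other end, at 26302 to 26601 in WT and to 26602 in Uhrf1hepKO, had folds of 15.2 and 16.6. Its 31-bp repeat took 99.5% of the bases under its ATACseq peaks in WT and 99.2% in Uhrf1hepKO, but 6.13% of the scaffold. H2A.Z peaks on it numbered 1 in WT and 4 in Uhrf1hepKO, and none overlapped an ATACseq peak.

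Peaks within 200 bp of the first or last base of a sequence occurred in both livers. Outside mitochondrial DNA there were 10 in WT and 9 in Uhrf1hepKO ATACseq, and 1 in each H2A.Z list. The fix patch CHR_MG4249_PATCH, a version of part of chromosome 19, had an ATACseq peak that ended on its last base in both livers, with a fold of 13.3 in each. No 32-mer under that peak was found on the chromosomes.

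Among the unlocalised scaffolds, 4 of chromosome 1 held most of the ATACseq peaks. GL456210.1, GL456211.1, GL456212.1 and GL456221.1, all of chromosome 1, held 7, 13, 11 and 7 ATACseq peaks in WT and 9, 19, 16 and 7 in Uhrf1hepKO. Of these, 16 of the 38 in WT (42.1%) and 16 of the 51 in Uhrf1hepKO (31.4%) overlapped a peak of the other liver. The shares of the whole lists were 61.6% and 60.5%. The median fold of the ATACseq peaks on these 4 scaffolds was 3.33 in WT and 3.15 in Uhrf1hepKO. Of the 32-mers under such a peak, a median of 97.2% in WT and 87.2% in Uhrf1hepKO were also found on the chromosomes, most often on chromosome 1. H2A.Z peaks numbered 4 and 10, over backgrounds of 6.39 to 8.61 reads in WT and 4.61 to 11.1 in Uhrf1hepKO, and all 4 in WT were shared with Uhrf1hepKO.

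GL456233.1, assigned to the X chromosome, had 6 H2A.Z peaks in each liver and no ATACseq peak in either. All 6 in WT and 4 of the 6 in Uhrf1hepKO lay near the starts of Vamp7, which encodes a SNARE protein of vesicle fusion, and Tmlhe, which encodes the first enzyme of carnitine synthesis. At Vamp7, whose start RefSeq places at 39191 on the minus strand, an H2A.Z peak at 39331 to 39641, upstream of the start, had a fold of 10.2 in WT, the highest of all H2A.Z members in either liver. In Uhrf1hepKO the peak at 39332 to 39632 had a fold of 7.20. At Tmlhe, with its start at 159605 on the plus strand, the upstream peak had a fold of 5.36 in WT and 6.97 in Uhrf1hepKO. Downstream of that start there were 3 peaks in WT with folds of 5.85, 3.90 and 5.36, and 2 in Uhrf1hepKO with folds of 4.65 and 5.81. Neither start was itself under a peak, and both had H2A.Z on either side in WT. Spry3, of the Sprouty family of inhibitors of growth factor signalling, had 1 peak within 5 kb of its start, in Uhrf1hepKO, with a fold of 4.65.

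GL456216.1, assigned to chromosome 4, had 6 H2A.Z peaks in each liver and 2 and 3 ATACseq peaks. It carries Dhrsx, of the short-chain dehydrogenase family, whose start RefSeq places at 14351 on the plus strand. Upstream of it WT had 4 H2A.Z peaks between 13307 and 14326, with folds of 6.34, 8.29, 6.58 and 4.39. Uhrf1hepKO had 2, with folds of 6.97 and 5.54. Downstream, within 5 kb, WT had 1 with a fold of 7.80, and Uhrf1hepKO had 2 with folds of 8.13 and 4.18, so the numbers near the start were 5 and 4. Downstream of the start, an ATACseq peak lay at 15953 to 16504 in WT, with a fold of 4.64. In Uhrf1hepKO ATACseq peaks lay at 15880 to 16077 and 16546 to 17364, with folds of 4.38 and 4.02. GENCODE gives CAAA01118383.1 over the same stretch, with a start at 15881 that lay under the first of these. The scaffold's ATACseq peak with the highest fold lay at 49118 to 49499 in both livers, away from both starts. Its folds were 12.4 and 14.4. There, the H2A.Z fold was 1.60 in WT and 1.73 in Uhrf1hepKO over a background of 83.6 and 94.8 reads, in contrast to backgrounds of 3.10 to 3.69 near the gene start.

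Counts over all scaffold genes include those named above. GENCODE lists 39 protein-coding genes on the 25 scaffolds with peaks. Of these, 19 were overlapped by a peak or had one within 5 kb of the start, 15 had one within 5 kb of the start, and 2 had one on the start. By list, ATACseq peaks were this close to the start of 9 genes in WT and 9 in Uhrf1hepKO, and H2A.Z peaks to that of 9 and 11. On the chromosomes, the shares of coding genes with a peak this close to the start were 30.2% and 27.9% in ATACseq and 52.8% and 51.0% in H2A.Z. Non-coding genes could hold more, such as the transcribed pseudogene LOC100861749 of JH584304.1, which 22 and 24 ATACseq and 45 and 45 H2A.Z peaks overlapped and which was named after its values were seen. Csprs, a gene related to Sp100 on GL456221.1, had 1 ATACseq peak inside it in each liver, with a highest fold of 2.97, and none near its start.

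On mitochondrial DNA, ATACseq peaks covered most of the molecule of 16299 bp in both livers, and H2A.Z gave no peak in either. The WT peaks ran from 13 to 7514 with a fold of 1.55, from 8563 to 9360 with 1.19, and from 10827 to 16257 with 1.80. The Uhrf1hepKO peaks ran from 9 to 7627 with 1.59, from 8603 to 9366 with 1.31, and from 10821 to 16257 with 1.93. Their −log10 q-values were 367, 54.5 and 720 in WT and 421, 144 and 950 in Uhrf1hepKO. Peaks covered 84.2% of the molecule in WT and 84.8% in Uhrf1hepKO, and the longer ones were the widest of all members. The numbers of mitochondrial reads are not in the lists, and a difference in mitochondrial DNA left in the nuclei and a difference in depth cannot be told apart from them.

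The stretches without a peak lay over the same genes in both livers. The ribosomal RNA genes mt-Rnr1 and mt-Rnr2 and the complex I subunit genes mt-Nd1, mt-Nd2, mt-Nd5 and mt-Nd6, with mt-Co1 of complex IV and mt-Cytb of complex III, were covered to 100% in both. The control region, where replication and transcription start, was covered to 95.2% in both. The genes mt-Tk, mt-Atp8, mt-Tg, mt-Nd3, mt-Tr and mt-Nd4l were covered to 0% in both, and mt-Atp6 of the ATP synthase to 6.61% in WT and 0.734% in Uhrf1hepKO. Partly covered were mt-Nd4 with 52.1% and 52.5%, mt-Co2 with 73.4% and 89.9%, and mt-Co3 with 96.2% and 96.9%.

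Mitochondrial sequence without a peak was nearly all present on the chromosomes as well, but not all sequence present there was without a peak. Of the 32-mers in the stretches without a peak, 96.9% in WT and 97% in Uhrf1hepKO were also found on chromosomes 1 to 19, X and Y. Within the peaks the shares were 30.3% and 30.7%, and over all of mitochondrial DNA 40.7%. In the peak from 8563 to 9360, 100% of 32-mers were found on the chromosomes too, as they were in the last part of the first peak, over mt-Ts1, mt-Td and the start of mt-Co2. What part the placement of reads had in this was not tested.

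The nuclear stretches with the most mitochondrial 32-mers carried ATACseq peaks themselves. There were 35 stretches with such words, of which 10 in WT and 11 in Uhrf1hepKO had an ATACseq peak and the others had none. Of the 8 with 100 or more of these words, 8 had an ATACseq peak in WT and in Uhrf1hepKO and none an H2A.Z peak in either. The one with the most lies on chromosome 1 at 24611535 to 24616184, holds 4563 of the words and corresponds to mitochondrial bases 6394 to 11042. Its ATACseq peak was 4550 bp wide in WT, with a fold of 2.53, and 4553 bp wide in Uhrf1hepKO, with a fold of 2.63. It is the widest ATACseq peak on the chromosomes in each list, and its mitochondrial counterpart spans both long stretches without a peak. Another, on chromosome 2 at 22587288 to 22590534, had peaks of 2619 and 2617 bp with folds of 4.27 and 4.35. That on chromosome 12 at 97061428 to 97061792, which corresponds to the control region, had folds of 22.6 and 23.9.

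**Figure D5:**
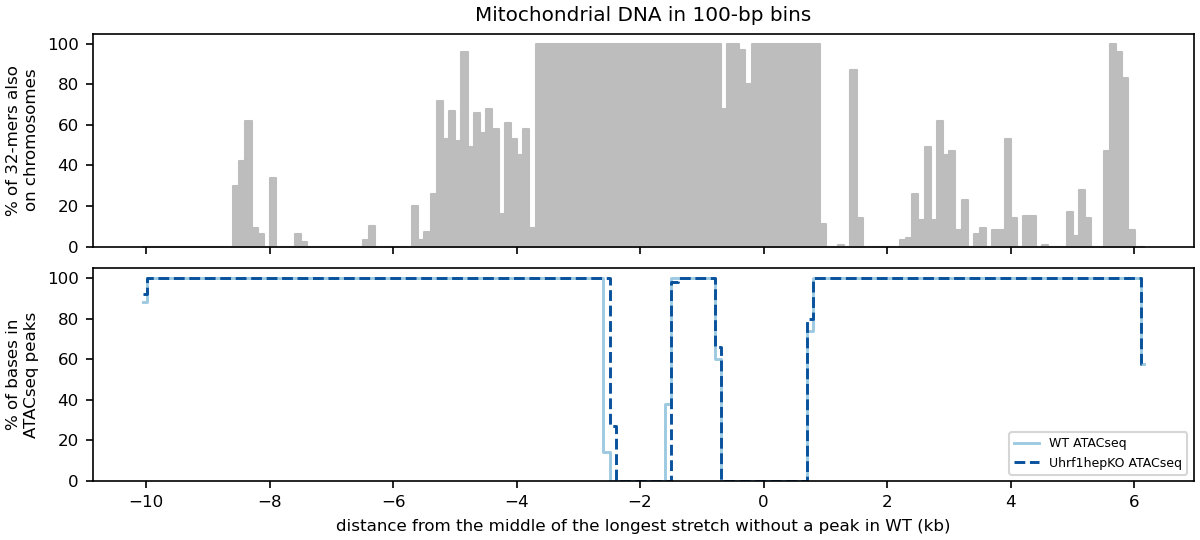
Mitochondrial DNA in 100-bp bins by distance in kb from the middle of the longest stretch without a peak in WT: percent of 32-mers also found on the chromosomes (top) and percent of bases in ATACseq peaks (bottom, WT solid and Uhrf1hepKO dashed). The bins without a peak have high values in the top panel, where 96.9% of 32-mers in WT are also on the chromosomes.

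Fix patches held mainly H2A.Z peaks, which were like those on the chromosomes. Their median H2A.Z fold was 5.23 in WT and 5.35 in Uhrf1hepKO, against 5.12 and 5.35, and the background was above the lowest level at 7.14% in each. The most H2A.Z peaks fell on CHR_MG153_PATCH of chromosome 19, with 10 in WT and 9 in Uhrf1hepKO, and on CHR_MG132_PATCH of chromosome 9, with 9 and 7. CHR_MG4151_PATCH of chromosome 7 had 6 in WT and 1 in Uhrf1hepKO. The sequence under the peaks could be read for 12 of the 20 patches. All 32-mers of a peak were found on the chromosomes for 46 of 48 H2A.Z peaks in WT and 34 of 34 in Uhrf1hepKO. For 35 of the 48 and 27 of the 34, a chromosome peak of the same list lay on a copy. CHR_MG4264_PATCH of chromosome 10 held mostly ATACseq peaks, 4 in WT and 9 in Uhrf1hepKO, with 1 H2A.Z peak in each. CHR_MG4212_PATCH of chromosome 5 held 2 and 3 ATACseq peaks and no H2A.Z peak.

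Taken over all kinds, the sequence under members was poorer in G and C than that under the peaks on the chromosomes, and more of it recurred. Neither held for every kind. The median GC content in ATACseq was 46.9% in WT and 47.3% in Uhrf1hepKO, against 57.8% and 56.3%. In H2A.Z it was 40.8% and 39.8%, against 47.0% and 46.7%. A member had 50% or more of its 32-mers on the chromosomes in 44.2% of WT and 42.2% of Uhrf1hepKO ATACseq members, while peaks on the chromosomes had as many at more than 1 place in 12.97% and 17.4% of cases. In H2A.Z these shares were 65.2% and 56.4%, against 3.45% and 3.68%. On unplaced scaffolds other than JH584304.1 they were 7.58% and 9.21% in ATACseq, below those of the chromosomes, and 18.8% and 4.35% in H2A.Z. On fix patches, most of whose sequence is also on a chromosome, they were 97.9% and 100% in H2A.Z. The median GC content of H2A.Z peaks on fix patches was 50% and 48.8%, above that of the chromosomes.

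Facts of the whole lists that touch these results are few. Uhrf1 itself had 1 ATACseq and 1 H2A.Z peak within 5 kb of its start in each liver, with folds of 3.96 and 4.70 in ATACseq and 6.58 and 6.04 in H2A.Z for WT and Uhrf1hepKO. Peaks at the start do not show whether the floxed part was deleted, so the deletion was not checked here. Of 10 hepatocyte marker genes, 1, 2, 1 and 0 had a peak within 5 kb of the start in the 4 lists, against 30.2%, 27.9%, 52.8% and 51.0% of 21938 coding genes. The 5 Kupffer cell and leukocyte and the 5 endothelial markers had none, 1, 0, 2 and 2 of the 5 cholangiocyte markers had one, and 1, 1, 0 and 0 of the 5 stellate cell markers. The labelled tissue could thus not be checked from marker genes. In bulk liver, fewer cells with a signal and less signal per cell cannot be told apart.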

How the data were processed

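ATACseq and H2A.Z ChIPseq were done on 1 WT and 1 Uhrf1hepKO liver. The authors trimmed reads (Trimmomatic), checked them (FastQC 0.11.5), aligned them to GRCm38.p4 with BWA-MEM, cleaned them with Picard, which removed duplicates for ChIPseq, and called peaks per library with MACS2, in broad mode with the paired-end option for ATACseq, although the methods give single-end ATACseq reads. The MACS2 version, the H2A.Z mode, any control library and the treatment of reads with several placements are not given in the sources used here. Each deposited peak has a score made by the authors' caller for display, a fold enrichment, which is a ratio over local background, and the deposited −log10 p-value and q-value. For H2A.Z the authors also deposited the summit. Depth is known only through these lists, no value is scaled between libraries, and sites with too few reads are missing.

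Members were found by sequence name. They and the lists of genes, and the alternatives, were chosen with earlier results of these data known. Positions are 1-based in GRCm38. The scaffolds' sequence came from the RefSeq FASTA. Names were tied to it by their order and, for 9 scaffolds, checked by coding transcripts of GENCODE vM21 that read without a stop there and on none of the other scaffolds tried. For the other 16 the match rests on the order and on all peaks lying inside the sequence. Of 20 fix patches 8 were not read, because the version differed or the start was not found once on the chromosome. Words of 32 bases were looked up on the chromosomes, on either strand. Arrays were windows of 100 bp with 75% of bases equal 1 unit on, with units of 10 to 300 bp searched. Pileups were solved within 0.001 of the deposited −log10 p-value. On simulated data, 893 of 893 peaks were recovered. The genes named are mitochondrial genes and those scaffold genes with a peak in them or within 5 kb of the start, up to 30 by fold. Pisd-ps3 and Dhrsx were named from RefSeq after their values were seen. Sequences described in full are those with peaks in all 4 lists or 10 in any list. Peak thresholds, overlap rules, merging within 200 bp, word length and the sequences included were varied. The software was pysam 0.24.0, scipy 1.17.1, pandas 2.3.3, numpy 2.4.6 and matplotlib 3.10.9 under Python 3.11.15.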

Additional observations from a re-analysis of the deposited data

Results flagged for a closer look

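JH584304.1 had 3 more ATACseq peaks in Uhrf1hepKO than in WT, while its H2A.Z count in Uhrf1hepKO minus that in WT was -17. On fix patches the same differences were 5 in ATACseq and -14 in H2A.Z. These were picked out because the differences between livers had opposite signs in the assays. The peaks on the chromosomes had the same signs, so they are not particular to these members. Those peaks numbered 10582 in WT and 10764 in Uhrf1hepKO in ATACseq, and 51450 and 47135 in H2A.Z. With 1 library per liver and assay the difference between them was not tested.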

How the results depend on the processing

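Of 102 alternative values 62 stayed within the limits set for an unchanged value and 40 moved. The ratio of H2A.Z peaks per Mb to that of the chromosomes, 1.80 in WT and 2.16 in Uhrf1hepKO, fell below 1 with peaks of higher fold only and without JH584304.1. No paired analysis was possible because each group has 1 library and no result comes from a test. With only the peaks whose fold reached their list's median, members numbered 41 and 37 in ATACseq and 56 and 41 in H2A.Z for WT and Uhrf1hepKO, the WT H2A.Z width was 122 bp, sharing between livers was 64.1% in ATACseq and 59.8% in H2A.Z, overlap of the assays was 0% in WT and 2.56% in Uhrf1hepKO, the ratio of peaks per Mb was 3.15 and 2.90 in ATACseq and 0.235 and 0.181 in H2A.Z, and the median share of 32-mers found on the chromosomes was 12.2% in ATACseq and 100% in H2A.Z. Without JH584304.1, H2A.Z members numbered 104 and 125, sharing between livers was 65.0% in ATACseq and 59.4% in H2A.Z, overlap of the assays was 9.96% and 22.1%, the ratio was 5.46 and 6.53 in ATACseq and 0.344 and 0.762 in H2A.Z, and the share of 32-mers was 23.5% and 68.5%. An overlap of 50% of both peaks gave a sharing between livers of 52.1% in ATACseq and 57.1% in H2A.Z and an overlap of the assays of 4.67% and 6.47%. Overlap at the centre gave 64.3% and 67.3%, and 24.8% and 29.7%. Merging peaks within 200 bp gave H2A.Z widths of 171 and 212 bp. With 75-mers the share was 8.22% in ATACseq and 15.2% in H2A.Z. For H2A.Z peaks on unplaced scaffolds other than JH584304.1, alternatives were added after the data were seen. Counts were 16 and 39 with a −log10 q-value of 2 or more, 15 and 38 with neighbours merged, and 10 and 41 without GL456359.1. Fewer peaks, a stricter overlap, wider regions and longer words lower or raise these values by construction, and any other cause was not tested. Depth and the spread between animals, which peak lists do not give, limit every comparison between livers.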
